A study of Mus musculus with 4 samples.

Results

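The genes of 9 plasma apolipoproteins (Apoa1, Apoa2, Apoa4, Apoa5, Apob, Apoc1, Apoc2, Apoc3 and Apoe) and of the microsomal triglyceride transfer protein (Mttp) were examined in mouse liver. They were chosen by gene symbol, and all 10 were found among the 24346 symbols listed in each library. The livers came from C57BL/6 mice, males by the study's methods, and their mRNA was sequenced. Every mouse was fed for 3 weeks a diet rich in fat, cholesterol and sucrose with bile salt, called the NASH diet because it induces steatohepatitis. The control group (NASH diet, n = 2 libraries) received this diet alone, and the 7KC group (NASH+7-ketocholesterol diet, n = 2 libraries) received it with 7-ketocholesterol (7KC), an oxidized derivative of cholesterol. There was no group on a normal diet, so the values describe the addition of 7KC to a diet that both groups ate. The sources do not say whether a library held RNA of 1 mouse or of several, and p-values measure only the spread between these libraries. The question of the comparison was whether adding 7KC to the diet altered the mRNA of the proteins that carry lipids out of the liver.

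Apolipoproteins are the protein coat of lipoproteins, the particles that carry cholesterol and triglyceride in blood, and the hepatocyte is their main source together with the enterocyte. APOB is the large structural protein of very low density and low density lipoproteins, and MTTP loads lipid onto it in the endoplasmic reticulum. APOA1 and APOA2 are the main proteins of high density lipoprotein, while the C apolipoproteins and APOE exchange between particles and set how fast triglyceride is removed and particles are taken up. Macrophages also make Apoe, Apoc1 and Apoc2.

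Levels are given as FPKM, read fragments scaled to the length of the gene and to the size of the library. Genes can thus be compared with each other. The deposited values were already on a common scale between libraries, as given below. Levels ranged from the top of the liver transcriptome for Apoe to ranks between 764 and 1148 for Mttp. Apoe ranked 1 or 2 of all genes in each library and Apoc1 ranked 3 in all 4. Apoa1 and Apoa2 ranked between 4 and 6. By mean level over the 4 libraries the order was Apoe, Apoc1, Apoa1, Apoa2, Apoc3, Apoa5, Apoc2, Apob, Apoa4 and Mttp. Of the steps in this order, 3 were clear of the spread, with the ranges over libraries apart. Apoa2 lay above Apoc3, Apoc3 above Apoa5, and Apoa4 above Mttp. The ranges of the other neighbours overlapped, although Apoe was above Apoc1, and Apoc1 above Apoa1, within each of the 4 libraries. Apoa1 exceeded Apoa2 in only 1 library, control replicate 2.

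**Figure D1:**
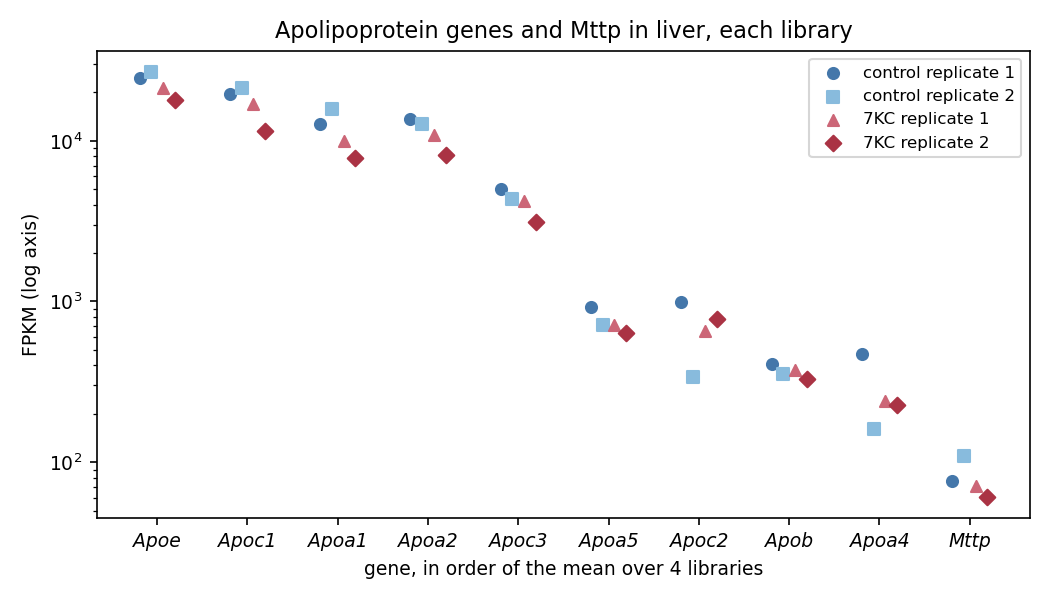
FPKM (log axis) of each of the 10 genes in the 4 libraries, with genes ordered by their mean. Both 7KC libraries lay below both control libraries in 7 of the 10 genes. This held for 27.4% of all tested genes and for 53.2% of those averaging 100 FPKM or more. Apoc2 and Apoa4 were about 2.9 times as high in control replicate 1 as in control replicate 2.

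Of the 10 genes, 9 had a lower fitted level in the 7KC group and 1, Apoc2, a higher one, and none passed the test. With limma on log2(FPKM + 0.5) and Benjamini-Hochberg adjustment over 12299 genes, the smallest adjusted p among the 10 was 0.303. At an unadjusted p under 0.05, 0 of the 10 were called, against 17.8% of all genes tested. By adjusted p the share called over all genes was 0.504%, with 0.48% higher and 0.0244% lower in the 7KC group. A lower fitted level by itself was common, at 53.9% of all tested genes, 78.8% of those averaging 100 FPKM or more and 77.2% of those averaging 1000 FPKM or more. The median log2 change of the 10 was -0.37, beside -0.03 for all genes tested. It was -0.22 for genes averaging 100 FPKM or more and -0.34 for those averaging 1000 FPKM or more. Both 7KC libraries lay below both control libraries in 7 of the 10, a state that 27.4% of all tested genes shared. Among the 808 genes that averaged 100 FPKM or more the same state held for 53.2%, and among the 79 that averaged 1000 FPKM or more for 60.8%. The 7 of 10 are to be read against these shares of abundant genes, and nothing particular to the 10 follows from them. Leaving out control replicate 1, control replicate 2, 7KC replicate 1 or 7KC replicate 2 gave 8, 10, 9 and 9 genes with a lower fitted level, and 0 calls each time. The median log2 change was -0.54 without 7KC replicate 1 and -0.23 without 7KC replicate 2.

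Apob and Mttp are the pair that builds triglyceride-rich particles. Apob (chromosome 12, 7977648 to 8016835, plus strand, mm10) was at 409 and 356 FPKM under the NASH diet alone against 376 and 329 FPKM with 7KC. The groups overlapped, and the log2 change of -0.12 was the smallest in size among the 10 on the deposited scale (SE 0.15, 95% interval -0.50 to 0.26, limma adjusted p 0.716). Rescaled to the hepatocyte markers it was 0.36, and leaving out 1 library gave -0.22 to -0.017. Mttp (chromosome 3, 138089854 to 138144968, minus strand) stood at 76.3 and 109 FPKM under the NASH diet alone against 70.6 and 61.1 FPKM with 7KC. Control replicate 2 stood highest, and the other 3 libraries were close together, with the 7KC libraries just below control replicate 1. The log2 change was -0.47 (SE 0.20, 95% interval -0.97 to 0.03, limma adjusted p 0.303). It was -0.72 without control replicate 1 (limma adjusted p 0.113) and -0.22 without control replicate 2 (limma adjusted p 0.674). Relative to Apob in the same library, Mttp stood at 18.7% in control replicate 1, 18.8% and 18.6% in the 7KC libraries, and 30.6% in control replicate 2. Mttp shares 457 exon bases with Trmt10a on the opposite strand, whose highest value was 1.08 FPKM.

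Apoa1 and Apoa2, the high density lipoprotein genes, had both 7KC libraries below both control libraries, and neither passed the threshold. Apoa1 (chromosome 9, 46228580 to 46230466, plus strand), which also activates cholesterol esterification in plasma, stood at 12659.6 and 15782.5 FPKM under the NASH diet alone against 10023 and 7790 FPKM with 7KC. The groups did not overlap, and 7KC replicate 2 was lowest. The mean was 14221 ± 2208 FPKM (SD, n = 2) in the control group and 8906 ± 1579 FPKM (SD, n = 2) in the 7KC group, a ratio of 0.626. Its log2 difference of -0.68 was the largest in size among the 10 on the deposited scale (SE 0.29, 95% interval -1.40 to 0.05, limma adjusted p 0.304). It was -0.47 at the same sum, -0.079 under quantile normalization and -0.20 rescaled to the hepatocyte markers, where Apoc2, at 0.51, 0.49 and 0.79, was larger in size. Apoa2 (chromosome 1, 171225054 to 171226379, plus strand) stood at 13623 and 12796.5 FPKM under the NASH diet alone against 10904 and 8189 FPKM with 7KC. Here too the groups did not overlap and 7KC replicate 2 was lowest. The ratio of the means was 0.723 and the log2 change -0.48 (SE 0.28, 95% interval -1.19 to 0.22, limma adjusted p 0.417). Without 7KC replicate 2 the change was -0.28.

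Apoa4 and Apoa5, which act on triglyceride transport, overlapped or barely separated. Apoa4 (chromosome 9, 46240696 to 46243459, plus strand) stood at 469 and 160 FPKM under the NASH diet alone against 241 and 227 FPKM with 7KC. The control libraries were thus the highest and the lowest of the 4, and both 7KC libraries lay between them. The log2 change was -0.23 (SE 0.49, 95% interval -1.47 to 1.01, limma adjusted p 0.842). Leaving out control replicate 1 gave 0.54, and leaving out control replicate 2 gave -1.004. Apoa5 (chromosome 9, 46268633 to 46271919, plus strand), a cofactor of lipoprotein lipase, stood at 925 and 719 FPKM under the NASH diet alone against 718 and 633 FPKM with 7KC. Control replicate 2 and 7KC replicate 1 were nearly equal, so the absence of overlap rested on a difference of less than 1 FPKM. The log2 change was -0.27 (SE 0.19, 95% interval -0.74 to 0.20, limma adjusted p 0.483). Without control replicate 1 the change was -0.091, and it was -0.46 when control replicate 2 was left out.

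Of the C apolipoproteins, Apoc1 and Apoc3 did not overlap between groups and Apoc2 did, and none passed the threshold. Apoc1 (chromosome 7, 19689481 to 19692660, minus strand), which inhibits remnant uptake, stood at 19526.5 and 21372 FPKM under the NASH diet alone against 16944 and 11424 FPKM with 7KC. The groups did not overlap, and the 7KC libraries differed from each other by a factor of 1.48. It differed by -0.55 on the log2 scale (SE 0.33, 95% interval -1.38 to 0.27, limma adjusted p 0.425). Leaving out 7KC replicate 1 gave -0.84, and leaving out 7KC replicate 2 gave -0.27. Apoc3 (chromosome 9, 46232933 to 46235636, minus strand), an inhibitor of triglyceride removal, stood at 5013 and 4322 FPKM under the NASH diet alone against 4220.2 and 3144 FPKM with 7KC. The libraries did not overlap, but control replicate 2 and 7KC replicate 1 were close. The groups differed by -0.35 on the log2 scale (SE 0.24, 95% interval -0.97 to 0.26, limma adjusted p 0.488). This was -0.57 without 7KC replicate 1 and -0.14 without 7KC replicate 2.

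Apoc2 (chromosome 7, 19671579 to 19677941, minus strand), the activator that lipoprotein lipase needs, stood at 995 and 339 FPKM under the NASH diet alone against 659 and 782 FPKM with 7KC. As with Apoa4, the control libraries were the highest and the lowest of the 4. The log2 difference was 0.30 (SE 0.50, 95% interval -0.97 to 1.58, limma adjusted p 0.786). Leaving out control replicate 1 gave 1.08 and leaving out control replicate 2 gave -0.47, so its direction rested on 1 control library. The annotation places on the same strand a read-through gene, Gm44805, that runs across Apoc4 and Apoc2 and shares 646 exon bases with Apoc2 and 119 with Apoc4. Gm44805 is not listed in these files, and how its reads were assigned is not stated. Apoc4 itself was at 1737 and 1759.5 FPKM under the NASH diet alone against 1522.5 and 1238 FPKM with 7KC, without the gap between controls. Apoc2 relative to Apoc4 was 57.3% and 19.3% under the NASH diet alone, and 43.3% and 63.2% with 7KC.

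Apoe (chromosome 7, 19696109 to 19699188, minus strand), the ligand through which remnants are taken up by the liver, was the most abundant of the 10. It was at 24632 and 26799.7 FPKM under the NASH diet alone against 21154 and 18029 FPKM with 7KC. The groups did not overlap, and control replicate 2 was highest. The mean was 25716 ± 1533 FPKM (SD, n = 2) in the control group and 19591.5 ± 2209.8 FPKM (SD, n = 2) in the 7KC group, a ratio of 0.762. The log2 change was -0.40 (SE 0.30, 95% interval -1.16 to 0.37, limma adjusted p 0.535).

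**Figure D2:**
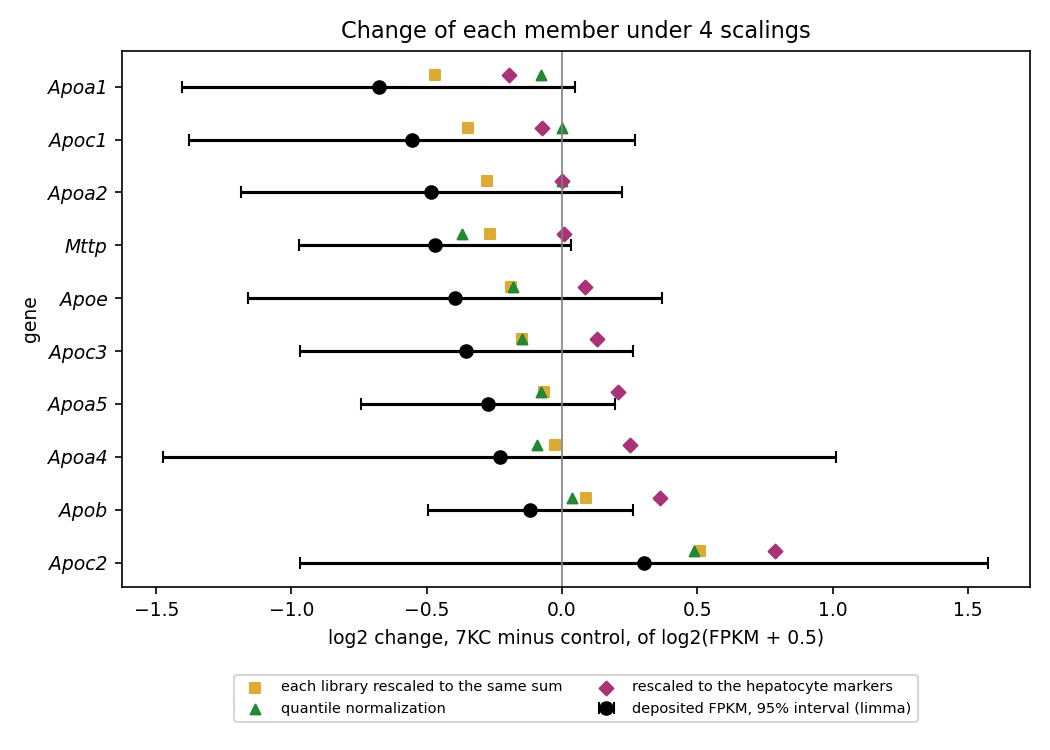
Log2 change of each gene (7KC minus control, of log2(FPKM + 0.5)) on the deposited values, with its 95% interval from limma in black, and the same change after each of 3 rescalings of the libraries. All 10 intervals include 0, and after rescaling to the hepatocyte markers 7 of the 10 changes were above 0.

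Apoa1, Apoc3, Apoa4 and Apoa5 lie within 43.3 kb on chromosome 9, with Apoc3 on the opposite strand to the other three, and Apoe, Apoc1, Apoc4 and Apoc2 lie on 1 strand within 27.6 kb on chromosome 7. In the chromosome 9 cluster Apoc3 relative to Apoa1 was at 39.6% and 27.4% in the control libraries and at 42.1% and 40.4% in the 7KC libraries. Both 7KC libraries were above both control libraries, with control replicate 1 close to them. Every other ratio between genes that was computed overlapped between groups, and no share over all gene pairs was computed. Apoa4 relative to Apoa1 was at 3.71% and 1.02% in the control libraries and at 2.41% and 2.91% in the 7KC libraries. In the chromosome 7 cluster Apoc1 relative to Apoe was at 79.3% and 79.7% in the control libraries, at 80.1% in 7KC replicate 1 and at 63.4% in 7KC replicate 2. Apoc4 relative to Apoe was at 7.05% and 6.57% in the control libraries and at 7.197% and 6.86% in the 7KC libraries.

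**Figure D3:**
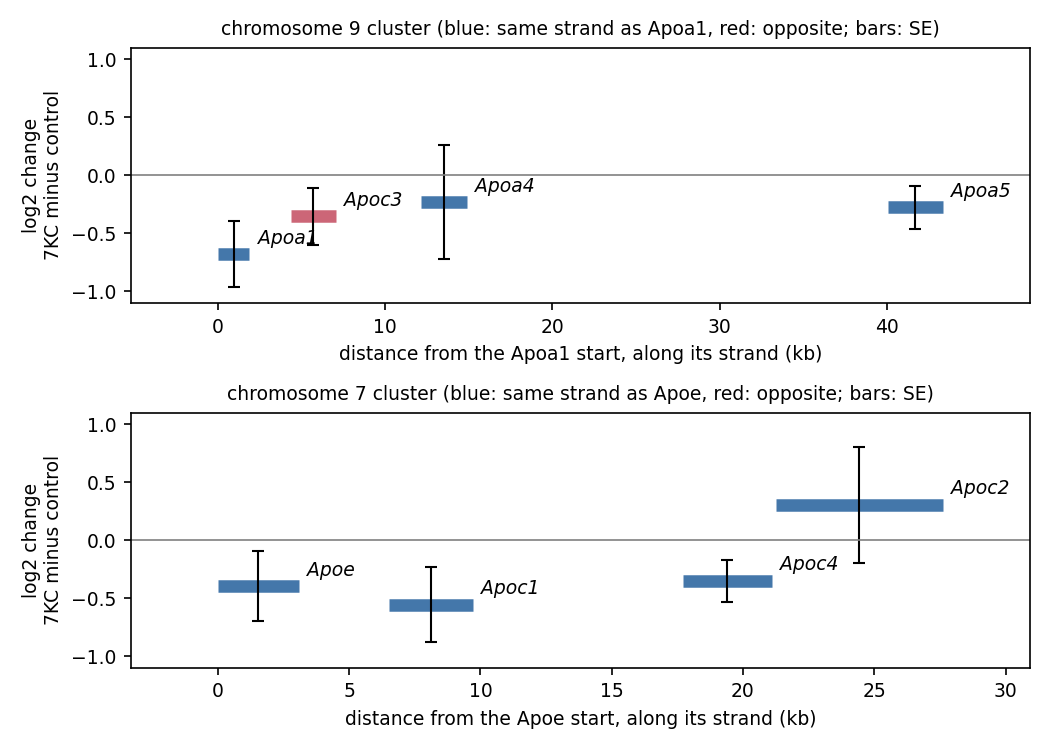
Log2 change (7KC minus control, error bars SE from limma) of the genes of the chromosome 9 and chromosome 7 clusters, drawn at their distance in kb from the start of Apoa1 or Apoe. Apoc2, at the far end of the chromosome 7 cluster, was the only gene with a change above 0, and its error bar crossed 0.

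The start regions of 3 of these genes are shown because their mRNAs had the most different patterns: Apoa1 with the largest difference between groups on the deposited scale, and Apoa4 and Apoc2 with the widest gap between control libraries. Each runs 5′ to 3′ on the gene's strand from 250 bases before to 50 bases after the start site, from RefSeq on GRCm38.p6 (chr9:46228380-46228679 for Apoa1, chr9:46240594-46240893 for Apoa4, chr7:19677892-19678191 for Apoc2). Capitals mark matches on either strand to AGGTCA, a half-site of nuclear receptors, or to GTTAAT, a half-site of HNF1, a hepatocyte transcription factor.
Apoa1: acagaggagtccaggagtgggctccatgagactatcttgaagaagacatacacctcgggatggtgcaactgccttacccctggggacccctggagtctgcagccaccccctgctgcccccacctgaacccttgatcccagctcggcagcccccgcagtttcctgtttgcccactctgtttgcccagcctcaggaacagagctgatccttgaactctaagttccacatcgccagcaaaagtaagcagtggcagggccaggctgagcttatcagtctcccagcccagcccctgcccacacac
Apoa4: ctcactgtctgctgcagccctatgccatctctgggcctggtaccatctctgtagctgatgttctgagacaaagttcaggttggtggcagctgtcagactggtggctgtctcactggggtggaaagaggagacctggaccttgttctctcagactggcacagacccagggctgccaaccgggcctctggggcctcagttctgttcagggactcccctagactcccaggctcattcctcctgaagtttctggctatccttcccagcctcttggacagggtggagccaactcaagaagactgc
Apoc2: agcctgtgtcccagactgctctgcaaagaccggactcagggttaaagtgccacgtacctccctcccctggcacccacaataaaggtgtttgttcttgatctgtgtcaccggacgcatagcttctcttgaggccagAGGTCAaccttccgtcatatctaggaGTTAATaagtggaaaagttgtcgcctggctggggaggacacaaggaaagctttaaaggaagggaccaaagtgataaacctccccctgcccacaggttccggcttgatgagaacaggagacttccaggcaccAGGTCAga
Apoc2 held AGGTCA at positions -115 and 43 counted from the start site, and GTTAAT at position -89. Neither Apoa1 nor Apoa4 held a match to any of the 6 sequences searched. Over all 32851 start regions, AGGTCA was held by 16.3% and GTTAAT by 7.10%. The sequence CAAAGTCCA, a core of the HNF4 site, was held by 0.47%, and TTGCGCAA, bound by C/EBP factors, by 0.18%. The promoter element CCAAT was held by 37.4% and the TATA element TATAAA by 13.6%. Start regions were matched for 8 of the 10 genes, in 12 windows, and not for Apoc1 and Apoc3. Among the 8 genes, AGGTCA was found in 2 (Apoa2 and Apoc2), GTTAAT in 2 (Apoc2 and Apoe), TATAAA in 4 (Apoa2, Apoa5, Apob and Apoe), CCAAT in 1 (Apoa2), and the other sequences in 0. The genes with a match thus included ones that overlapped between groups and ones that did not, and no motif was tested against expression.

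Because several of these genes are very abundant, their sum is a sizeable part of each library. Of the FPKM summed over all genes, 11.4% and 12.3% fell to the 10 genes under the NASH diet alone and 10.5% and 9.08% with 7KC. Both 7KC libraries were below both control libraries. The sum over all genes was also lower in the 7KC libraries, at 619828 and 557138 against 685028 and 671235, and the 10 genes made up 25.2% of the difference between the group means. The deposited values were already on a common median-ratio scale, with factors from 1.0006 to 1.0027 over the libraries. Rescaling each library to the same sum moved the median change of all genes from -0.03 to 0.16. On that scale the median of the 10 genes was -0.17, 8 of the 10 had a lower fitted level, and 4 had both 7KC libraries below both control libraries, where 7.83% of all tested genes did. The share of abundant genes in this state was not computed on that scale, so nothing particular to the 10 follows. Under quantile normalization the median was -0.08, as for all genes, and 1 of the 10 had no overlap in this direction, where 34.3% of all tested genes did. That setting gives each gene the value of its rank. Apoc1 ranked 3 in every library and Apoa2 ranked 4 and 5 in both groups, so their changes of 0 were fixed by the method. The changes of Apoa1, Apoc3 and Apoe, whose ranks moved between libraries, were -0.079, -0.15 and -0.18.

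Markers of the cells in the liver were set beside these genes, and none passed the threshold. Of 14 hepatocyte markers, all had a lower fitted level in the 7KC group and 13 had both 7KC libraries below both control libraries, where 27.4% of all tested genes and 60.8% of those averaging 1000 FPKM or more did. Their median log2 change was -0.52, and -0.30 without 7KC replicate 2. Alb (albumin) was at 41547 and 25202.5 FPKM under the NASH diet alone against 26969 and 18988 FPKM with 7KC, the only marker whose groups overlapped. The lowest p-values were those of Hpd, Tdo2 and Cps1, enzymes of amino acid and urea metabolism, which differed by -0.71, -0.56 and -0.52 on the log2 scale (limma adjusted p 0.207, 0.218 and 0.239). Relative to the control mean, the median of the 10 genes was 1.05 and 0.95 under the NASH diet alone and 0.827 and 0.687 with 7KC, and the median of the hepatocyte markers was 0.961 and 1.04, then 0.805 and 0.630. The summed FPKM of the hepatocyte markers was 81205 and 68750.3 under the NASH diet alone and 61027 and 47999 with 7KC. When each library was rescaled to its hepatocyte markers, a setting chosen after the data were seen that moved the median of all genes to 0.41, 7 of the 10 had a higher fitted level, with a median of 0.11, and 1 had both 7KC libraries below both control libraries, where 0.93% of all tested genes did. The share of abundant genes was not computed on this scale either. In whole liver, fewer hepatocytes and less RNA per hepatocyte cannot be told apart, and their part in the values of the 10 genes was not tested.

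Most macrophage markers had a higher fitted level with 7KC, and none passed the threshold. Of 10 markers of recruited macrophages, all had a higher fitted level in the 7KC group (median log2 change 1.59), and 7 had both 7KC libraries above both control libraries, a state that 25.1% of all tested genes shared. Their summed FPKM was 696 and 419 under the NASH diet alone and 1292 and 2166 with 7KC. The smallest p-values were those of Ly6c2, Itgam and Lyz2, which differed by 2.40, 1.67 and 1.59 on the log2 scale (limma adjusted p 0.0523, 0.0596 and 0.104). Of 10 Kupffer cell markers, 8 had a higher and 2 a lower fitted level (median 0.81, and 0.51 without 7KC replicate 2), 7 had both 7KC libraries above both control libraries, and their summed FPKM was 842 and 801 under the NASH diet alone and 1133 and 1649 with 7KC. Timd4, Marco and C1qa, a receptor for dying cells, a scavenger receptor and a complement subunit, differed on the log2 scale by 0.92, 0.92 and 0.83 (limma adjusted p 0.0606, 0.0966 and 0.117). The 2 with a lower fitted level were Vsig4, a complement receptor, at -0.41 with both 7KC libraries below both control libraries (limma adjusted p 0.375), and the lectin gene Clec4f at -0.03, whose groups overlapped (limma adjusted p 0.940). They were named after their values were seen. Whether the 2 lists separate resident from recruited macrophages was not tested. The part of macrophages in the values of Apoe, Apoc1 and Apoc2 was not tested. Of 10 enterocyte markers 9 were listed, and the defining genes Sis, Lct, Alpi, Cdx2 and Vil1 did not exceed 0.0495 FPKM, with Sis at 0 in all of them. Fabp2, Lgals4 and Anpep, which liver also expresses, were tested and differed on the log2 scale by -0.33, 0.48 and 0.21 (limma adjusted p 0.441, 0.380 and 0.464).

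**Figure D4:**
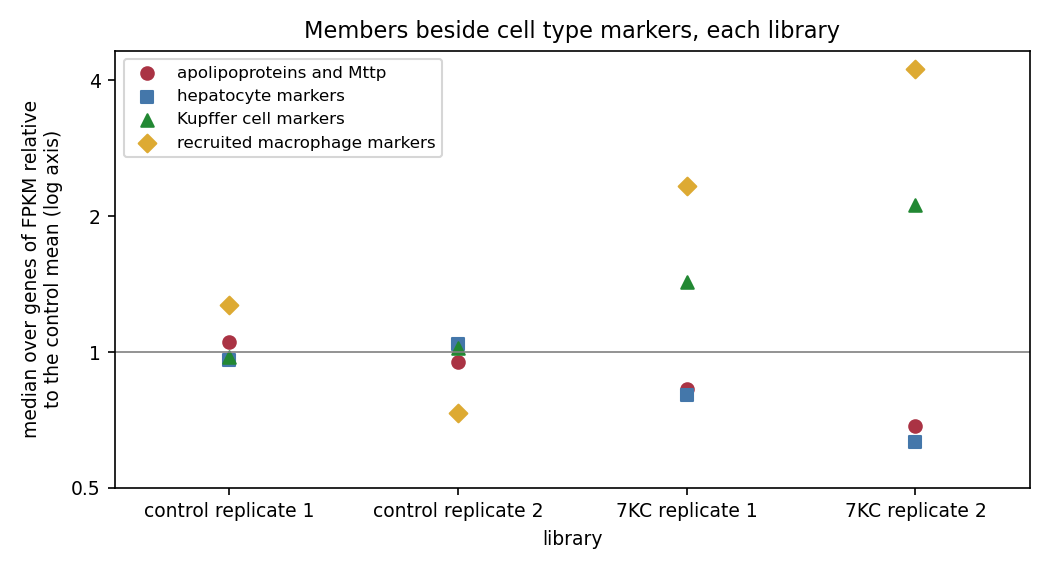
Median over genes of the FPKM relative to the control mean (log axis) in each library, for the 10 genes and for markers of hepatocytes, Kupffer cells and recruited macrophages. The 10 genes (0.827 and 0.687) and the hepatocyte markers (0.805 and 0.630) lay side by side below 1 in the 7KC libraries, and recruited macrophage markers were at 2.34 and 4.23.

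The genes nearest to each member in pattern over the 4 libraries were found as those whose log2 values, centred on their own mean, differed least at the library where they differed most. With 4 libraries such likeness is a description only, and many genes were nearly as close to most members. The nearest gene was Ttr (transthyretin) to Apoc1, Ces2a to Apoa2, Fah to Apoe, Hagh to Apoc3, Fetub to Mttp, Tm6sf2 to Apoa5, Rpl36 to Apob and Tars to Apoa1, with a largest difference between 0.01 and 0.05 on the log2 scale. The numbers of genes within 0.1 were 19 for Apoc1, 310 for Apoe and 789 for Apob. Apoa4 and Apoc2 had few neighbours. The nearest gene to Apoa4 was the hemoglobin gene Hba-a1 at a difference of 0.12, with 73.9 and 26.6 FPKM under the NASH diet alone against 43.1 and 34.8 FPKM with 7KC. The nearest to Apoc2 was Btg2, an early-response gene, at 0.07, with 18 and 6.03 FPKM under the NASH diet alone against 12.8 and 14.4 FPKM with 7KC.

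Other genes of the lipoprotein pathway were then examined. Among 10 tested plasma apolipoproteins outside the 10 genes, 5 had a higher and 5 a lower fitted level, with a median log2 change of -0.03 and 0 past the threshold. The median was 0.18 at the same sum, 0.13 under quantile normalization and 0.45 rescaled to the hepatocyte markers. All genes tested had medians of 0.16, -0.08 and 0.41 on those scales. The serum amyloid gene Saa3, an acute phase apolipoprotein, was at 346 and 170 FPKM under the NASH diet alone against 759 and 698 FPKM with 7KC, with a log2 difference of 1.58 (SE 0.34, limma adjusted p 0.108). Apom, a high density lipoprotein protein that carries sphingosine-1-phosphate, was at 417 and 434 FPKM under the NASH diet alone against 309 and 243 FPKM with 7KC, with a log2 difference of -0.63 (SE 0.16, adjusted p 0.145). Apoh, which binds phospholipid, differed by -0.53 on the log2 scale (SE 0.19, adjusted p 0.243). Libraries did not overlap between groups in any of these 3 genes, but they were picked for small p, which favours separation. Over all tested genes, 27.4% had both 7KC libraries below both control libraries and 25.1% had them above.

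Of 19 genes for the assembly and secretion of lipoproteins, 17 had a lower and 2 a higher fitted level (median log2 change -0.20), and 0 passed the threshold. The median was 0.0077 with each library rescaled to the same sum and 0.28 rescaled to the hepatocyte markers. All genes tested had medians of 0.16 and 0.41 on those scales, and of -0.03 on the deposited one. Apobec1, the enzyme that edits Apob mRNA so that the short form of the protein is made, was one of the 2 higher ones. It was at 9.38 and 10.04 FPKM under the NASH diet alone against 15.1 and 20.8 FPKM with 7KC, so the groups did not overlap (log2 change 0.84, SE 0.18, limma adjusted p 0.104). Editing itself cannot be read from gene-level FPKM. Dgat2, an enzyme that makes triglyceride, was at 272 and 313 FPKM under the NASH diet alone against 211 and 202 FPKM with 7KC (log2 change -0.50, SE 0.13, adjusted p 0.155). Mia3, an exit-site protein for bulky cargo, differed by -0.42 on the log2 scale (SE 0.12, adjusted p 0.181).

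Of 11 tested genes of plasma lipoprotein remodeling, 3 had a higher and 8 a lower fitted level (median -0.09). The median was 0.11 at the same sum and 0.38 rescaled to the hepatocyte markers. All genes tested had medians of 0.16 and 0.41 on those scales. The sterol exporter Abcg1 differed by 0.70 on the log2 scale (limma adjusted p 0.142), and Angptl4, an inhibitor of lipoprotein lipase, by -0.34 (limma adjusted p 0.251). The 9 tested lipoprotein receptor genes had a median of -0.02, which was 0.19 at the same sum and 0.45 rescaled to the hepatocyte markers, and the high density lipoprotein receptor Scarb1 and Mylip, which lowers the LDL receptor, each differed by -0.17 on the log2 scale (adjusted p 0.486 and 0.729). None of these 20 genes passed the threshold.

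Among 23 tested transcription factors and coactivators that act on these genes, 18 had a lower and 5 a higher fitted level (median -0.27), and 0 passed the threshold. The median was -0.085 at the same sum, 0.17 rescaled to the hepatocyte markers and -0.15 without 7KC replicate 2. For all genes tested it was 0.16 at the same sum and 0.41 rescaled to the hepatocyte markers. Ppargc1b, a coactivator of lipid genes, was at 3.84 and 3.86 FPKM under the NASH diet alone against 1.77 and 2.11 FPKM with 7KC (log2 change -0.84, SE 0.15, limma adjusted p 0.0732). Srebf1 and Nr5a2, regulators of lipid synthesis and of bile acid and sterol genes, differed on the log2 scale by -0.69 and -0.39 (adjusted p 0.137 and 0.173). Hnf4a, a main activator of apolipoprotein genes in the hepatocyte, was at 154 and 150.4 FPKM under the NASH diet alone against 131 and 125 FPKM with 7KC (log2 change -0.25, SE 0.11, adjusted p 0.321). It was named for its role and not by rank of p.

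The apolipoprotein L family, intracellular proteins that share the name but do not coat plasma lipoproteins, had higher fitted levels with 7KC. Of 12 genes 5 were tested, all 5 had both 7KC libraries above both control libraries, where 25.1% of all tested genes did, and 1 passed the threshold, where 0.48% of all tested genes were called higher. The median log2 change was 0.79, and 0.52 without 7KC replicate 1. Apol10b rose from 1.31 and 1.30 FPKM under the NASH diet alone to 8.34 and 5.88 FPKM with 7KC, with a log2 difference of 2.06 (SE 0.19, limma adjusted p 0.0313). Its call was lost without control replicate 2 (adjusted p 0.0543), without 7KC replicate 1 (0.146) and without 7KC replicate 2 (0.131), and also without the filter (0.12), under quantile normalization (0.052) and with the replicate block (0.151), and over all alternatives the adjusted p ranged from 2.97e-05 to 0.151. Apol7c and Apol9a differed on the log2 scale by 1.41 and 0.79 (adjusted p 0.0934 and 0.134). The 7 members below the filter were at less than 1 FPKM in every library. Members of this family resemble each other in sequence, and their single values are uncertain.

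**Figure D5:**
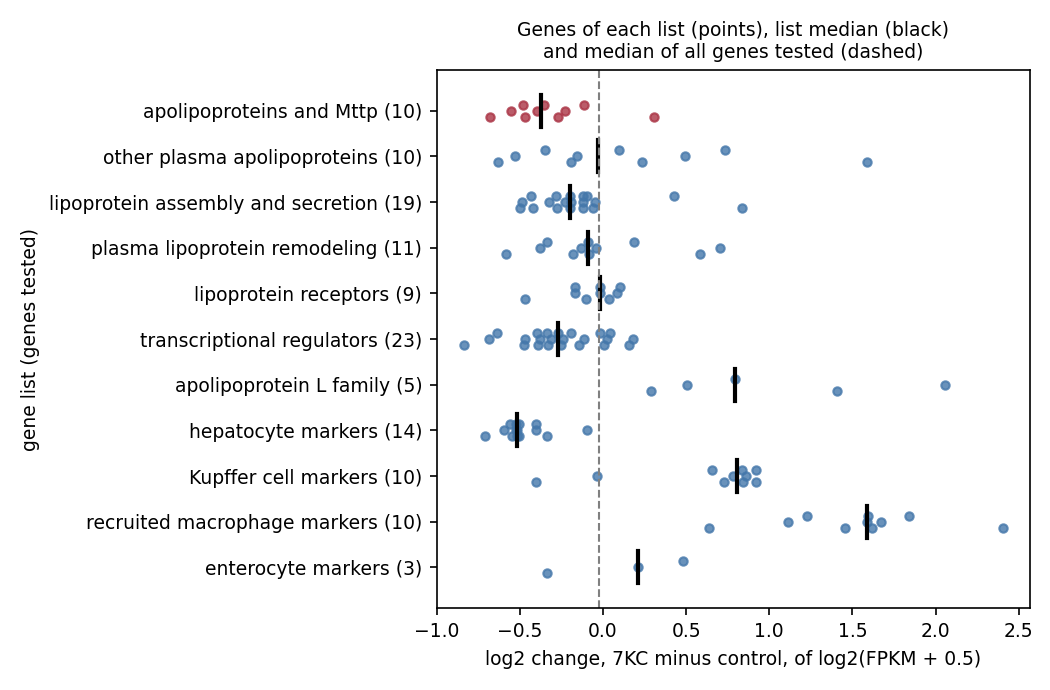
Log2 change (7KC minus control, of log2(FPKM + 0.5)) of each tested gene in the 10 genes and in the other lists, with the list median in black and the median of all genes tested, -0.03, as a dashed line. The 10 genes (median -0.37) lay between the assembly genes (-0.20) and the hepatocyte markers (-0.52). Genes averaging 1000 FPKM or more, not drawn, had a median of -0.34. The medians of both macrophage lists and of the apolipoprotein L list lay above 0, with 2 Kupffer cell markers below it.

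All 10 genes were deeply covered. The library size that the values imply was estimated at 17000000 reads for control replicate 1 and at 13600000 to 13800000 for the other libraries. With full exon lengths, the fewest reads behind a value came to about 3800, for Apoc2 in control replicate 2. The most came to about 895300, for Apoe in control replicate 1. These counts run high, because the library size was found with shortened lengths. The intervals rest on variances that limma moderates across genes (residual df 2, prior df 3.27), so they are not a gene's own spread between libraries alone. A single gene tested alone by exact permutation of 2 libraries against 2 could not reach a p below 0.333.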

How the data were processed

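RNA was extracted from liver with a miRNeasy kit and libraries were made with a stranded mRNA kit. The submitters' processing notes name TopHat2 2.1.1, Bowtie2 2.2.8, SAMtools 0.1.18 and Cuffdiff 2.2.1 with mm10. The study's methods name single-end reads of an Illumina HiSeq and Cufflinks. The FPKM values were deposited by the authors, 1 per gene symbol and library. The annotation and the settings for strand and shared reads are not given in the sources used here.

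After a filter on the mean over libraries (0.5 FPKM), 12299 genes were tested as log2(FPKM + 0.5) with limma 3.58.1 in R 4.3.3 (lmFit, then eBayes with a trend), with the group as the only term and Benjamini-Hochberg adjustment. An adjusted p under 0.05 was the threshold. Changes are on this log2 scale. The script was tested on simulated data. Positions and exon lengths were read from the GENCODE annotation (mouse release 21, mm10). The deposited values were already on a common scale, so the depth found need not equal the mapped reads. It was estimated as the library size at which low values of single-transcript genes came out as whole reads. For 70.8% to 72.2% of values of up to 10 reads this held within 0.1 of a read, against a median of 13.7% to 14.2% over other depths tried.

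The 10 genes, the gene lists and the tests were chosen with earlier results of these data known. All 10 genes were named, and from each other list the genes past the threshold and the 3 with the smallest p. Alb and Hnf4a, and Apoc4 and Trmt10a for their position, were named beside that rule. Some genes that this rule would name are not reported here.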

Additional observations from a re-analysis of the deposited data

How the results depend on the processing

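None of the 10 genes passed the threshold under the 13 alternatives planned or the rescaling to hepatocyte markers, chosen after the data were seen, and 130 of 140 values kept the direction of the deposited scale or came out at 0. The other 10 turned it. Changing the filter, the trend or the replicate block cannot alter a gene's log2 change here. The pseudocounts and the median-ratio scaling barely move it, so the count of 130 was partly fixed in advance. Rescaled to the hepatocyte markers, the log2 change was 0.25 for Apoa4, 0.21 for Apoa5, 0.36 for Apob, 0.13 for Apoc3, 0.086 for Apoe and 0.0086 for Mttp. Apob was at 0.089 with each library rescaled to the same sum and at 0.036 under quantile normalization, Apoa4 at 0.54 without control replicate 1 (from -1.004 to 0.54 over the libraries left out) and Apoc2 at -0.47 without control replicate 2 (from -0.47 to 1.08). The cause was not tested. The median of the 10 genes was -0.17 at the same sum, -0.078 under quantile normalization and 0.11 rescaled to the hepatocyte markers, and -0.54 to -0.23 when 1 library was left out. Their share of the summed FPKM was lower by 2.07 percentage points in the 7KC group (a difference of -2.07), -0.67 under quantile normalization and -2.80 to -1.34 when 1 library was left out.

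Over all genes, 59 were called higher and 3 lower. A pseudocount of 1 gave 111 higher, no filter on low values 0 and 1 (16858 genes tested), the same sum 398 and 7, no trend in the prior variance 39 and 1, and the hepatocyte markers 2201 and 9. Leaving out 1 library gave 2 to 404 higher and 1 to 54 lower. The replicate block gave 0 and 0. The labels give both groups the same replicate numbers, and deviations of same-numbered libraries correlated at -0.14 over 12299 genes. With 2 libraries per group this is 1 contrast, so it cannot decide whether same-numbered libraries belong together. Pairing the libraries crosswise, added after the data were seen, gave 551 and 37.

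In the lists, calls of higher genes moved as follows, and no call was of a lower gene on the deposited scale. At the same sum there were 1 in the other plasma apolipoproteins, 3 in the apolipoprotein L family, 2 Kupffer cell and 2 recruited macrophage markers. Rescaled to the hepatocyte markers there were 5 other plasma apolipoproteins, 1 assembly gene, 2 remodeling genes, 2 regulators, 6 apolipoprotein L genes, 8 Kupffer cell, 9 recruited macrophage and 2 enterocyte markers. A pseudocount of 1 gave 1 recruited macrophage marker. The apolipoprotein L family had 0 without a filter, under quantile normalization and with the replicate block, against 1. Leaving out 1 library gave 0 to 1 other plasma apolipoproteins, 0 to 1 regulators, 0 to 1 apolipoprotein L genes and 0 to 4 recruited macrophage markers.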
